A study of Mus musculus with 30 samples.

Results

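The 7 genes described here, Sycp1, Sycp2, Sycp3, Syce1, Syce2, Tex11 and Tex12, encode proteins of the synaptonemal complex or, for Tex11, a meiotic protein that acts on synapsed chromosomes. They were chosen by name from the annotation of a mouse Affymetrix gene array, out of 19937 genes with a probe set of 1 symbol. Each had a single probe set, and all 7 were among the 15180 genes left by a filter on low signal. Earlier results of these data were known when the 7 genes and the lists of other meiotic genes below were chosen. Their counts beside shares of all genes are therefore descriptive. The arrays measured RNA of primordial germ cells, which later form oocytes or spermatogonia, sorted as GFP-positive cells from dissociated gonads that carried an Oct4(deltaPE)-GFP transgene. Each array was made from 500 cells whose RNA had been amplified by PCR before hybridisation.

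The study compared germ cells carrying a deleted Rnf2 with control germ cells. RNF2 is a catalytic subunit of Polycomb repressive complex 1 (PRC1), which mono-ubiquitinates histone H2A and represses developmental genes, and the series concerns the part of PRC1 in when female germ cells begin to differentiate. The mutant genotype was Ring1+;Rnf2delta (called Rnf2delta here) and the control genotype was Ring1+;Rnf2+, both on a mixed 129/Sv and C57BL6J background and both labelled Ring1+. There were 10 groups of 3 arrays, 30 in all: female and male Rnf2delta and control germ cells at E11.5 and E12.5 (E, embryonic day), and female and male control germ cells at E13.5, with no Rnf2delta group at that day. The labels name neither the recombinase nor the part of Rnf2 that was removed, and give no embryo or pool of origin for the replicates. The p-values below therefore measure the spread between these arrays, which may be technical. Because each array holds a pool of cells, fewer cells that express a gene and less RNA of it per cell cannot be told apart.

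The synaptonemal complex is the protein lattice that joins homologous chromosomes along their length in the prophase of the first meiotic division. SYCP2 and SYCP3 build the axial elements of each chromosome, which become the lateral elements of the complex, and SYCP1 forms the transverse filaments that bridge them. SYCE1, SYCE2 and TEX12 belong to the central element in the middle of the lattice, where SYCE2 and TEX12 bind each other. TEX11 is encoded on the X chromosome and is needed for crossover formation. In the mouse, female germ cells enter meiosis in the fetal ovary under retinoic acid and STRA8, whereas male germ cells in the fetal testis arrest without entering meiosis until after birth.

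The Rnf2 probe set was lower on average in Rnf2delta than in control germ cells in all 4 matched pairs of groups. The log2 difference was -0.61 (adjusted p = 0.199) in E11.5 females, -0.31 (adjusted p = 0.802) in E11.5 males, -0.63 (adjusted p = 0.0294) in E12.5 females and -1.03 (adjusted p = 0.00224) in E12.5 males, each with an SE of 0.19 from limma. Arrays of the 2 genotypes overlapped in E11.5 males. Over 14 alternatives the adjusted p in E12.5 females ran between 0.0117 and 0.364. Where the probes lie relative to the deleted part is not given in the sources used here. The 6 arrays of E12.5 females stood apart from the other 24. Their correlation with the mean of their own group was 0.964 to 0.978, against 0.983 to 0.990 on the others, so every comparison below that uses E12.5 females rests on the noisier arrays. Germ cell markers had a median log2 level of 7.32 to 8.11 over the 10 groups, whereas 31 markers of other gonadal and blood cells had a median of 2.38 to 2.56, near the 40th percentile of the arrays (2.20 to 2.40). None of those 31 was called in any of the 4 genotype comparisons by limma, and 0 to 2 of them in each had an unadjusted p under 0.05. Their summed log2 level was 73.6 to 78.7 in Rnf2delta E12.5 females, against 76.2 to 81.3 in control E12.5 females. Of the 10 germ cell markers, 3 (Pou5f1, Dppa3 and Dnd1) were called lower by limma in Rnf2delta than in control E12.5 females. In that comparison 2.16% of all genes were called lower, and 5 of the 10 markers had an unadjusted p under 0.05. No germ cell marker was called in the other genotype comparisons.

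Values are the deposited log2 signals, on which a difference of 1 is a doubling. Levels of different genes are not set against each other, since probe sets differ in how strongly they bind. Differences were tested with limma on all 30 arrays, adjusted over 15180 genes, and a gene is called where the adjusted p is under 0.05. The fit shares 1 estimate of each gene's spread over all 10 groups, so its SE is the same in every comparison of 2 groups. For the noisier E12.5 female arrays this SE can understate their own spread. For the genotype in E12.5 females 1502 genes were called in this fit, and 54 when only the compared arrays were fitted.

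Sycp1, on the minus strand at chr3:102818499-102936100 (GRCm38.p6), and Sycp3, at chr10:88459587-88473236, are the members for which the genotype difference was largest in E12.5 females, together with Tex11 at chrX:100838648-101059639. Tex12 lies at chr9:50557148-50561268, Syce2 at chr8:84872111-84887446, Syce1 at chr7:140777229-140787854 and Sycp2 at chr2:178345295-178407776. RefSeq promoter windows of GRCm38.p6, from 250 bases before to 50 bases after an annotated start site, were at hand for 6 of the 7 genes, and Syce2 had 2 of them. The windows of Sycp1, Sycp3, Tex12 and Syce2 are printed because they hold short motifs linked to meiotic gene control, so that their letters can be read beside the signals. They are given 5′ to 3′ on the strand of the gene, with matches to the motifs searched in capitals. The Sycp1 window is chr3:102936051-102936350 (minus strand), the Sycp3 window chr10:88459337-88459636 (plus strand), the Tex12 window chr9:50561219-50561518 (minus strand) and the Syce2 window chr8:84872008-84872307 (plus strand).
Sycp1: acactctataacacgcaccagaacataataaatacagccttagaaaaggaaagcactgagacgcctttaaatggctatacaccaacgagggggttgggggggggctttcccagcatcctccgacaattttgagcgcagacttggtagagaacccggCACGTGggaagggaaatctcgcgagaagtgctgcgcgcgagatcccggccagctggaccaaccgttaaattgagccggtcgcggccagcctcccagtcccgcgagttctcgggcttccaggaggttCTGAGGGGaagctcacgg
Sycp3: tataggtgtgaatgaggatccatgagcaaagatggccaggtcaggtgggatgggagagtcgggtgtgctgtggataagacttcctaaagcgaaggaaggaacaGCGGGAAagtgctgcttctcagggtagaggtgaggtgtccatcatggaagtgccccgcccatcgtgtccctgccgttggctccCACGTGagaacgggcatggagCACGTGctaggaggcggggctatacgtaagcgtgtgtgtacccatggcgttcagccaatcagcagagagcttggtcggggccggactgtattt
Tex12: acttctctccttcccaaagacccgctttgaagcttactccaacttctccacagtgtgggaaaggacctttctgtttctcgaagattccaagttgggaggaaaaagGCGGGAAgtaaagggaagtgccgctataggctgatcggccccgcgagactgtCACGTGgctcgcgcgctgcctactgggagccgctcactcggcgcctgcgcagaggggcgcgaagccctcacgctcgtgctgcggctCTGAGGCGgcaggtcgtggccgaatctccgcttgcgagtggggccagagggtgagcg
Syce2: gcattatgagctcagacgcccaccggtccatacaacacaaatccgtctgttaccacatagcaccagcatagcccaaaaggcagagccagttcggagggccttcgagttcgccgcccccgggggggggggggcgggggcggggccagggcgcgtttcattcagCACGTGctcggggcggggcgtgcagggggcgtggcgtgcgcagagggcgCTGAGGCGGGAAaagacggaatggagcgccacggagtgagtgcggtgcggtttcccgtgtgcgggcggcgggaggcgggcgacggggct
The motifs were the E-box CACGTG, which reads the same on both strands, an E2F element TTCCCGC and a STRA8 element CNCCTCAG, each searched on both strands. E-boxes of this kind are bound by MAX and its partners, and E2F elements by the E2F6 protein of a non-canonical PRC1 complex among other factors. CACGTG was found in 4 of the 6 members with a window, against 8.09% of 27025 genes (7.15% of 32851 windows). Its first base lay 94 bases before the start in Sycp1, 93 before it in Tex12 and 88 before it in Syce2, and Sycp3 held it at 64 and at 43 bases before the start. TTCCCGC was found in 3 members (Sycp3, Tex12 and Syce2), against 5.29% of genes, and CNCCTCAG in 3 (Sycp1, Tex12 and Syce2), against 9.12% of genes. In Syce2 the matches to TTCCCGC and CNCCTCAG overlap. Sycp2, Syce1 and the other Syce2 window held none of these letters. A match describes the letters of a window and says nothing of what binds there.

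**Figure D1:**
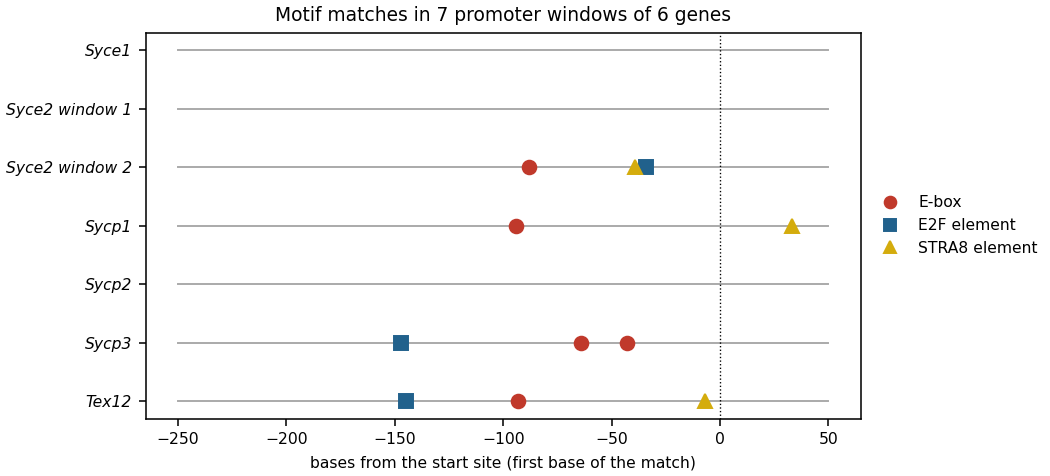
Positions of motif matches in the 7 RefSeq promoter windows of 6 members, with the distance from the start site in bases on the horizontal axis. Circles mark the E-box CACGTG, squares the E2F element TTCCCGC and triangles the STRA8 element CNCCTCAG; E-boxes lie 43 to 94 bases before the start in the windows of Sycp1, Sycp3, Tex12 and the second window of Syce2.

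The first question was how loss of Rnf2 changed the 7 genes in female germ cells at E12.5, a day before most of them rose in control females. The mutant germ cells had more signal for the transverse filament gene Sycp1, both axial element genes Sycp2 and Sycp3, the crossover gene Tex11 and the central element gene Tex12. For Sycp1, Sycp3, Tex11 and Tex12 the differences ran between 1.43 and 2.35 log2 units, which is 2.69-fold to 5.08-fold, and for Sycp2 only a lower limit can be given. The other central element genes, Syce1 and Syce2, were not called. Of the 7 members 5 were called higher, against 7.73% of all genes tested, and 6 had all 3 Rnf2delta arrays above all 3 control arrays, against 11.9% of all genes.

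Among the axial element genes, Sycp3 had 8.90, 7.62 and 7.07 on the Rnf2delta E12.5 female arrays, against 5.44, 5.49 and 5.63 on the control E12.5 female arrays. Every mutant array lay above every control array by more than a log2 unit. The difference was 2.35 ± 0.33 (SE, n = 3 each; limma adjusted p = 3.03e-05), the largest of the 7. Sycp2 had 4.12, 2.75 and 2.68 in the mutant females, against 2.23, 2.02 and 1.85 in the control females. All 3 control values lay below the 40th percentile of their own arrays and so give only an upper limit. Sycp2 was at least 1.79-fold higher in Rnf2delta than in control E12.5 females when the 40th percentile stood in for the control level (adjusted p of the measured values = 0.00251). Without mutant array 1 that limit was 1.29-fold. The call was lost when only these 6 arrays were fitted (adjusted p = 0.233).

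Sycp1 had 6.50, 5.64 and 4.88 in Rnf2delta E12.5 females, against 3.58, 3.71 and 3.32 in control E12.5 females. The groups did not overlap, although the mutant arrays spread over a wider range. The difference was 2.13 ± 0.28 (SE; adjusted p = 1.54e-05), or 4.39-fold. Tex11 had 5.46, 4.71 and 4.49 in the mutant females, against 2.98, 3.31 and 2.85 in the control females. These groups were also apart, with a difference of 1.85 ± 0.23 (SE; adjusted p = 5.71e-06). The calls of Sycp1, Sycp3 and Tex11 held under every alternative setting and without any 1 array, with adjusted p up to 0.0375.

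In the central element, Tex12 had 5.88, 3.93 and 4.03 in Rnf2delta E12.5 females, against 3.21, 3.23 and 3.13 in control E12.5 females. The first mutant array stood well above the other two, which were themselves above all controls. The difference was 1.43 ± 0.35 (SE; adjusted p = 0.0100). That call depended on mutant array 1, without which the adjusted p was 0.116, and on the fit: it was 0.154 with array weights and 0.24 with only these 6 arrays, in a range of 0.00377 to 0.24 over all alternatives. Syce1 had 5.64, 5.06 and 5.08 in the mutant females, against 4.29, 4.85 and 4.75 in the control females. The mutant arrays lay above all controls, but the difference of 0.63 ± 0.22 (SE) missed the threshold (adjusted p = 0.0623, and 0.0434 without control array 2). Syce2 had 8.50, 8.27 and 8.12 in the mutant females, against 8.08, 8.18 and 7.64 in the control females. The groups overlapped, and the difference was 0.33 with a 95% confidence interval of 0.01 to 0.65 (adjusted p = 0.182).

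The first Rnf2delta E12.5 female array was the highest of its group for all 7 genes. Stra8, the retinoic acid target needed for meiotic entry, ranked these 3 arrays in the same order as Sycp1, Sycp2, Sycp3, Tex11 and Syce2. Its difference from control females was 2.79 ± 0.35 (SE; limma adjusted p = 8.49e-06).

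**Figure D2:**
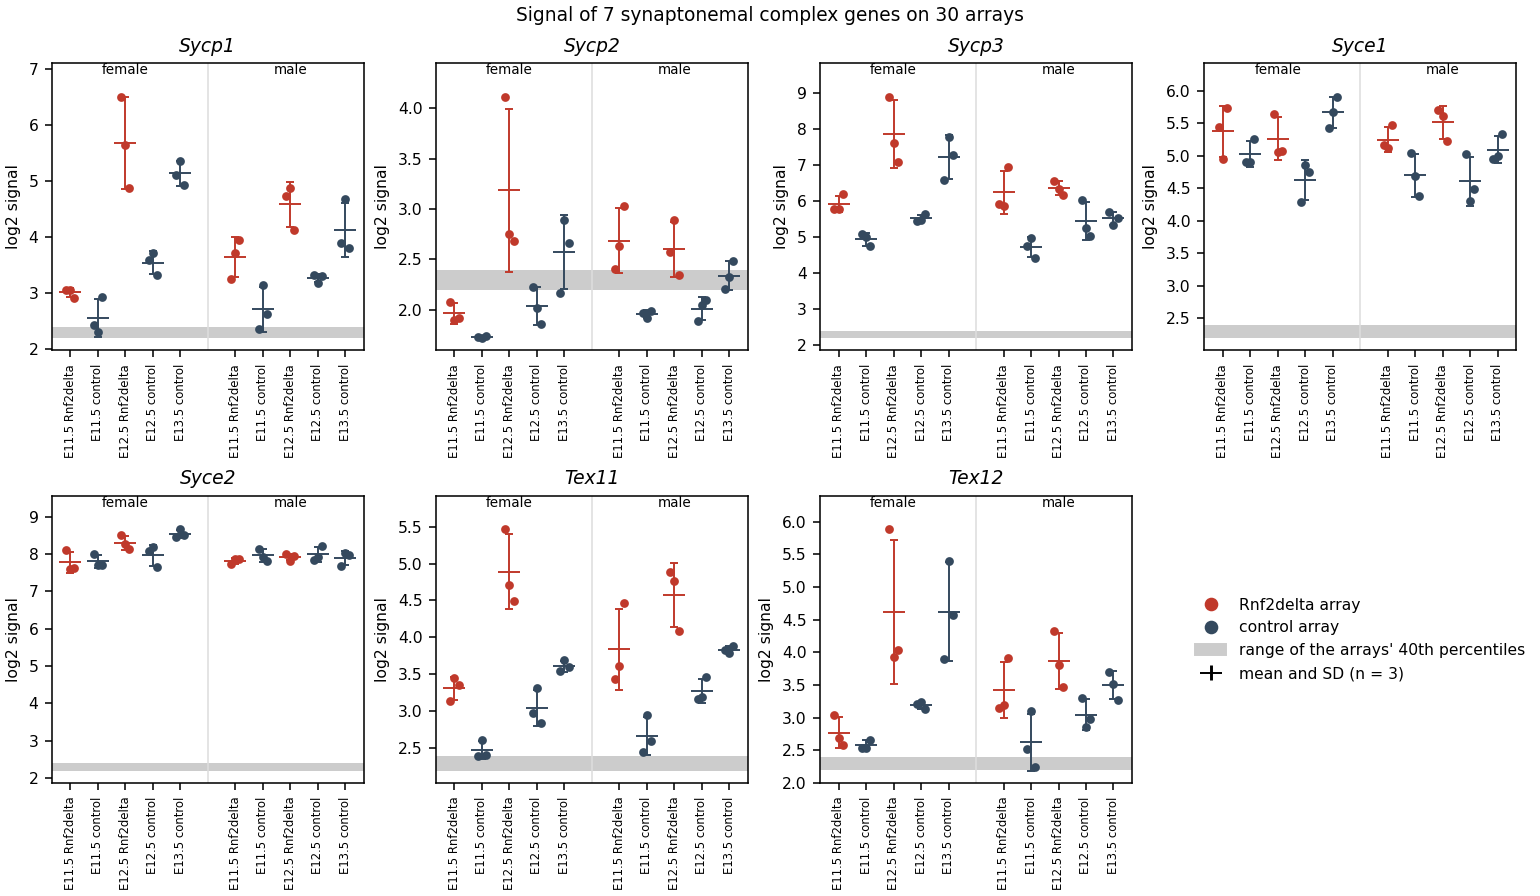
Deposited log2 signal of each member (vertical axis) on all 30 arrays, by sex, embryonic day and genotype, with group mean and SD (n = 3). The grey band spans the arrays' 40th percentiles, 2.20 to 2.40; the Rnf2delta E12.5 female arrays of Sycp1, Sycp3 and Tex11 all lie above the control E12.5 female arrays, and most Sycp2 values lie in or below the band.

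The same comparison was made in male germ cells, which do not enter meiosis at these days. In Rnf2delta E12.5 males Sycp1, Syce1 and Tex11 were higher than in control E12.5 males, by 1.31, 0.91 and 1.30 log2 units. Sycp3 and Tex12 had differences of 0.92 and 0.82 that were not called, and Syce2 differed by -0.08. Sycp2 was not called either (adjusted p of the measured values = 0.422). With its 3 control arrays below the 40th percentile, its mutant mean was at least 1.28-fold higher, and at least 1.16-fold without mutant array 2. The 3 calls compare with 0.843% of all genes called higher in this comparison. All but Syce2 had mutant arrays entirely above control arrays, against 8.64% of all genes. Stra8 was above the 40th percentile on 1 of 3 mutant and 0 of 3 control E12.5 male arrays and was not called (adjusted p = 0.998).

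Tex11 had 4.88, 4.77 and 4.08 in Rnf2delta E12.5 males, against 3.17, 3.19 and 3.46 in control E12.5 males. The lowest mutant array was above the highest control array. The difference of 1.30 ± 0.23 (SE; limma adjusted p = 0.00175) was called under every alternative. Sycp1 had 4.73, 4.88 and 4.13 in the mutant males, against 3.32, 3.18 and 3.31 in the control males. These arrays did not overlap either, and the difference was 1.31 ± 0.28 (SE; adjusted p = 0.0133). Sycp1 lost its call without control array 1 or 2 (adjusted p = 0.056 and 0.079) or mutant array 1 or 2 (0.0886 and 0.115). Syce1 had 5.70, 5.61 and 5.23 in the mutant males, against 5.03, 4.31 and 4.48 in the control males. Each mutant array exceeded each control array, and the difference was 0.91 ± 0.22 (SE; adjusted p = 0.0350). Its call was lost with only these 6 arrays (0.0534) and without control array 2 or 3 (0.241 and 0.166) or mutant array 1 or 2 (0.186 and 0.153).

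At E11.5 fewer members were called. In E11.5 males Sycp3 and Tex11 were called higher in the mutant, 2 of 7 members against 0.679% of all genes, and 6 members had non-overlapping arrays in that direction, against 8.74% of all genes. Mutant array 3 was the highest of its group for all 7 members. Sycp3 had 5.92, 5.88 and 6.93 in Rnf2delta E11.5 males, against 4.76, 4.97 and 4.43 in control E11.5 males. All mutant arrays were above all controls, and the difference was 1.52 ± 0.33 (SE; limma adjusted p = 0.0159). Tex11 had 3.44, 3.62 and 4.47 in the mutant males, against 2.45, 2.96 and 2.59 in the control males. The groups were again apart, with a difference of 1.17 ± 0.23 (SE; adjusted p = 0.00704). Sycp3 lost its call without control array 1 or 3 (0.0549 and 0.137) or mutant array 3 (0.213), and Tex11 lost it without control array 1 (0.0534) or mutant array 3 (0.112). Sycp1 differed by 0.92 and was not called (adjusted p = 0.173), but was called with array weights (0.0355). Sycp2 was not called (adjusted p = 0.219), and its mean was higher in the mutant males by at least 0.44 log2 units (0.27 without mutant array 3). Its call with array weights (0.0355) rests on control values below the 40th percentile.

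In E11.5 females no member was called by limma, against 0.54% of all genes called higher, and 2 members had an unadjusted p under 0.05. These were Sycp3, which differed by 0.97 ± 0.33 (SE; adjusted p = 0.300), and Tex11, which differed by 0.84 ± 0.23 (SE; adjusted p = 0.122). Sycp3 had 5.77, 5.79 and 6.18 in Rnf2delta E11.5 females, against 5.08, 5.01 and 4.74 in control E11.5 females. Tex11 had 3.14, 3.45 and 3.35 in the mutant females, against 2.40, 2.62 and 2.42 in the control females. For both genes, and for Sycp2, the mutant arrays lay wholly above the control arrays, 3 members against 9.71% of all genes, but Sycp2 was below the 40th percentile on all 6 arrays. When only these 6 arrays were fitted Sycp3 and Tex11 were called (adjusted p = 0.0169 and 0.0176).

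Averaged over the 4 pairs of groups, 6 members were higher in Rnf2delta germ cells, against 8.14% of all genes called higher. The mean log2 difference was 1.44 ± 0.16 for Sycp3, 1.29 ± 0.11 for Tex11, 1.21 ± 0.14 for Sycp1, 0.81 ± 0.18 for Tex12 and 0.61 ± 0.11 for Syce1 (SE, n = 12 arrays of each genotype; limma adjusted p = 4.31e-09 for Tex11 to 0.00244 for Tex12). Sycp2 was called as well, but no size is given for it, since all 12 control arrays and the 3 Rnf2delta E11.5 female arrays lay below the 40th percentile. Syce2 had a mean difference of 0.02 ± 0.08 (SE; adjusted p = 0.915). The same 6 genes were called under every alternative and without any 1 array, except that the 60th percentile filter drops Sycp2. Without the 6 E12.5 female arrays the mean differences were 1.14 for Sycp3, 1.10 for Tex11, 0.90 for Sycp1, 0.61 for Tex12 and 0.60 for Syce1, and the 6 adjusted p ran up to 0.0171. The median over the 7 members was 0.81, against 0.01 over all genes tested.

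**Figure D3:**
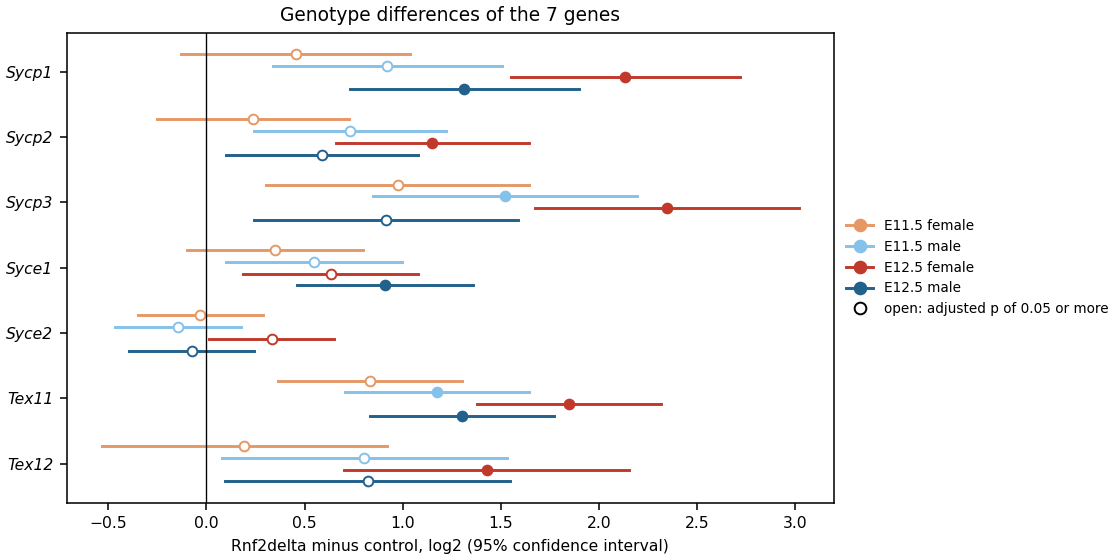
Log2 difference of Rnf2delta minus control germ cells for each member (vertical axis), with 95% confidence intervals on the horizontal axis, at E11.5 and E12.5 in females and males. Filled points are called at an adjusted p under 0.05. Sycp3 reaches 2.35 and Sycp1 2.13 in E12.5 females. The Syce2 interval in E12.5 females starts just above 0 and its point is open, while its other intervals include 0. All 4 Sycp2 points rest on control values below the 40th percentile and mark no exact size.

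Whether the genotype difference itself changed with sex or day was tested as an interaction. At E12.5 no member had a difference between female and male genotype effects that was called by limma, against 0.217% of all genes called higher. Sycp3 had an effect larger by 1.43 ± 0.46 in females than in males (SE; adjusted p = 0.153, and 0.0322 without the third Rnf2delta E12.5 female array), and it was the 1 member with an unadjusted p under 0.05. In females no member was called for a change of the genotype effect between E12.5 and E11.5, against 0.0988% of all genes, although 5 had an unadjusted p under 0.05. Sycp1 was nearest the threshold, with an effect larger by 1.68 ± 0.40 at E12.5 than at E11.5 (SE; adjusted p = 0.0771). Without the third Rnf2delta E12.5 female array that adjusted p was 0.00476, and without the second control E12.5 female array it was 0.046. In males no member and no other gene (0% of genes) was called for such a change by limma, and 0 members had an unadjusted p under 0.05. These tests do not show that the effects were alike.

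The second question was how the genes moved in normal germ cells. In control females 5 of the 7 members were higher at E13.5 than at E12.5, against 17% of all genes called higher. Sycp3 had 6.58, 7.79 and 7.28 in control E13.5 females, against the 5.44 to 5.63 of control E12.5 females. No array of the later day fell within the earlier range, and the difference was 1.70 ± 0.33 (SE; limma adjusted p = 3.95e-04). Sycp1 had 5.11, 5.36 and 4.93 in control E13.5 females, a difference of 1.59 ± 0.28 from E12.5 (SE; adjusted p = 1.75e-04). The central element genes rose as well. Syce1 was higher by 1.04 ± 0.22 (SE; adjusted p = 9.49e-04), Tex12 by 1.43 ± 0.35 (SE; adjusted p = 0.00403) and Syce2 by 0.58 ± 0.16 (SE; adjusted p = 0.0077). The call of Tex12 was lost without E13.5 array 2 (0.0541), and that of Syce2 without E12.5 array 3 (0.0741) or with only the compared arrays (0.0719). Tex11 differed by 0.57 (adjusted p = 0.0775, and 0.0468 without E12.5 array 2). Sycp2 was above the 40th percentile on 2 of 3 arrays at E13.5 and on none at E12.5. It was not called (adjusted p of the measured values = 0.109, and 0.045 without E13.5 array 1). With the 40th percentile in place of the E12.5 values, its measured E13.5 mean was 1.17-fold higher, and 1.05-fold higher without E13.5 array 2. Both means include E13.5 array 1, itself below the 40th percentile, so neither value is a lower limit. Such values, and the lower limits given elsewhere, compare means and carry no SE.

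Between E11.5 and E12.5 only Sycp1 was called among the members in control females, with a difference of 0.98 ± 0.28 (SE; limma adjusted p = 0.0149), against 4.56% of all genes called higher. It had 3.58, 3.71 and 3.32 at E12.5, against 2.42, 2.31 and 2.94 at E11.5. The call was lost without E11.5 array 1 or 2 (0.0588 and 0.0751) or E12.5 array 2 (0.0508). In control males no member was called for either step. For E12.5 against E11.5, 2 members had an unadjusted p under 0.05 and 0.962% of all genes were called higher, and for E13.5 against E12.5 the values were 3 members and 0.758%. The change between E12.5 and E13.5 was larger in control females than in control males by 1.61 ± 0.46 for Sycp3 (SE; adjusted p = 0.0338, up to 0.115 over the alternatives), against 5.07% of all genes called in that direction. Sycp1 in control males had 3.90, 4.68 and 3.80 at E13.5, against 3.32, 3.18 and 3.31 at E12.5, with a difference of 0.86 (adjusted p = 0.178).

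In Rnf2delta females 6 members were higher at E12.5 than at E11.5, against 6.96% of all genes, and Syce1 differed by -0.11. Sycp1 had 6.50, 5.64 and 4.88 in Rnf2delta E12.5 females, against 3.06, 3.06 and 2.91 in Rnf2delta E11.5 females. The later arrays were all far above the earlier ones, by 2.66 ± 0.28 on average (SE; limma adjusted p = 5.35e-07). Sycp3 rose by 1.95 ± 0.33 (SE; adjusted p = 1.22e-04), Tex12 by 1.85 ± 0.35 (adjusted p = 4.88e-04), Tex11 by 1.58 ± 0.23 (adjusted p = 2.26e-05) and Syce2 by 0.53 ± 0.16 (adjusted p = 0.0173). Sycp2, below the 40th percentile on all 3 arrays at E11.5, was at least 1.91-fold higher at E12.5 (adjusted p of the measured values = 5.97e-04), and at least 1.39-fold without E12.5 array 1. In Rnf2delta males no member was called between these days, against 0.152% of all genes called higher, and 2 had an unadjusted p under 0.05. Tex11, which differed by 0.74 between the days in these males, was called without E11.5 array 3 (0.0174) or E12.5 array 3 (0.0487). The change between the days was larger in Rnf2delta females than in Rnf2delta males by 1.71 ± 0.40 for Sycp1 and 1.84 ± 0.46 for Sycp3 (SE; adjusted p = 0.0177 and 0.0289), and Sycp2 was called too (0.0313) on values that lay below the 40th percentile in Rnf2delta E11.5 females. These were 3 of 7 against 1.21% of all genes, but none of the 3 calls held when only the compared groups were fitted (0.0637 for Sycp1, 0.127 for Sycp2 and 0.0841 for Sycp3). The call of Syce2 was lost without E11.5 array 2 or 3 (0.091 and 0.0851), without E12.5 array 1 (0.106) and with only the compared arrays (0.0854). These comparisons use the same Rnf2delta E12.5 female arrays as the genotype comparison above.

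Sex set the members apart at the latest control day. At control E13.5, Sycp1, Sycp3, Syce2 and Tex12 were higher in females than in males, 4 of 7 against 7.91% of all genes called higher. Sycp3 had 6.58, 7.79 and 7.28 in females, against 5.69, 5.35 and 5.52 in males, and no arrays overlapped. Its difference was 1.69 ± 0.33 (SE; limma adjusted p = 4.75e-04). Syce2 had 8.45, 8.66 and 8.52 in females, against 7.67, 8.01 and 7.97 in males. For this gene, whose genotype differences were small, the female level was higher by 0.66 ± 0.16 (SE; adjusted p = 0.00323). Sycp1 was 2.01-fold higher (adjusted p = 0.0137) and Tex12 was higher by 1.13 log2 units (adjusted p = 0.0274), and neither call was firm. That of Sycp1 was lost without male array 1 or 3 (0.0669 and 0.0851) or female array 2 (0.072), and that of Tex12 without male array 2 or 3 (0.0685 and 0.104) or female array 2 or 3 (0.227 and 0.0584). Syce1 was higher by 0.57 log2 units with no overlap of arrays and missed the threshold (adjusted p = 0.0738), but it was called with array weights (0.0323), with only the compared groups (0.0221), with quantile normalization (0.0293) and without the 6 E12.5 female arrays (0.0469). Tex11 ran the other way without being called: it had 3.54, 3.69 and 3.59 in females, against 3.83, 3.79 and 3.89 in males (difference -0.23, adjusted p = 0.595). At control E11.5 and E12.5 no member was called between the sexes, and none had an unadjusted p under 0.05. Of all genes, 0.25% and 19.1% were called in either direction, and 0.112% and 4.31% were called higher in females. In Rnf2delta germ cells at E12.5, Sycp3 was higher in females than in males by 1.51 ± 0.33 (SE; adjusted p = 0.00192) and Sycp1 by 1.09 ± 0.28 (SE; adjusted p = 0.00869), 2 of 7 against 5.9% of all genes. Sycp1 lost this call without female array 1 (0.112), without male array 3 (0.0607) and with only the compared arrays (0.0961). Sycp2, which differed by 0.58, was called without female array 2 or 3 (0.0343 and 0.0226), and Tex12, which differed by 0.75, without female array 2 (0.0498). At Rnf2delta E11.5 no member was called, against 0.132% of all genes called lower. Of the 7 there, 3 had an unadjusted p under 0.05, all lower in females than in males.

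Because the mutant females at E12.5 and the control females at E13.5 both had high signals, the groups were compared directly. Tex11 alone among the members was called, against 3.64% of all genes called higher and 5.81% called lower in the mutant females. It had 5.46, 4.71 and 4.49 in Rnf2delta E12.5 females, against 3.54, 3.69 and 3.59 in control E13.5 females. The lowest mutant array was above the highest control array, and the difference was 1.28 ± 0.23 (SE; limma adjusted p = 6.39e-04, up to 0.0236 over the alternatives). The remaining members differed by 0.65 for Sycp3, 0.61 for Sycp2 (above the 40th percentile on 2 of the 3 control arrays), 0.54 for Sycp1, -0.00 for Tex12, -0.25 for Syce2 and -0.41 for Syce1. Without mutant array 3 Sycp1 and Sycp2 were called (0.0368 and 0.0347), and without mutant array 2 Sycp2 was called (0.0442). A missed threshold does not show that their levels were equal.

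**Figure D4:**
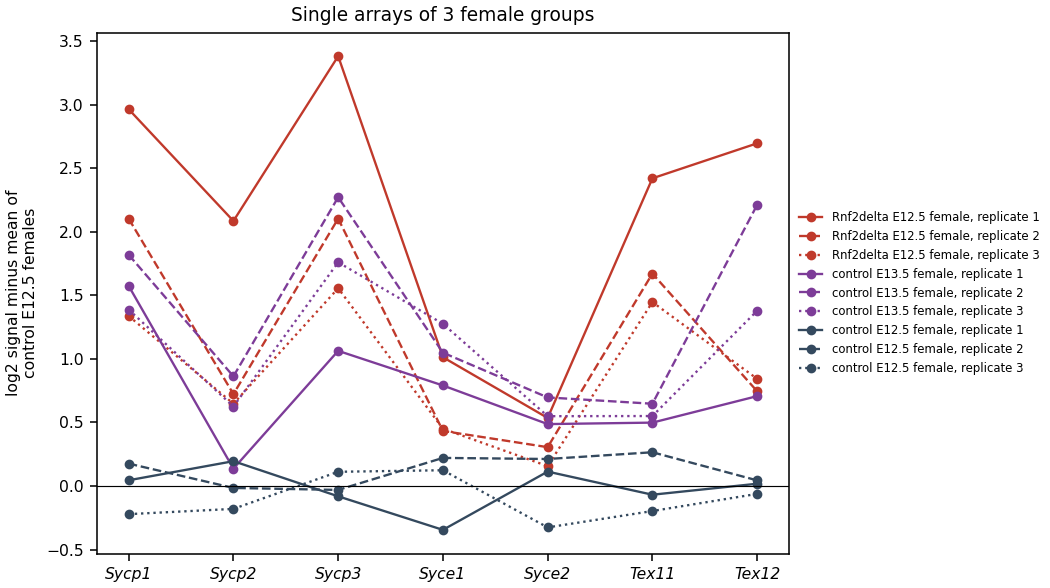
Log2 signal of each member minus its mean over control E12.5 females (vertical axis) on the single arrays of 3 female groups, 1 line per array. The first Rnf2delta E12.5 array is highest for 5 of the 7 genes, and all 3 Rnf2delta lines lie above all control E13.5 lines at Tex11.

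Over all 10 groups the order of levels differed between genes. For Sycp1 the highest means were 5.67 ± 0.81 in Rnf2delta E12.5 females and 5.13 ± 0.22 in control E13.5 females (SD, n = 3 each), whose arrays overlapped. The lowest was 2.56 ± 0.33 in control E11.5 females. Sycp3 had the same top pair, 7.86 ± 0.94 and 7.21 ± 0.61, also overlapping, and then a gap to Rnf2delta E12.5 males at 6.35 ± 0.19. All 4 Rnf2delta groups of Sycp3 ranked above control E13.5 males, at 5.52 ± 0.17. For Tex11 the 3 highest means belonged to Rnf2delta groups, 4.89 ± 0.51 in E12.5 females, 4.58 ± 0.43 in E12.5 males and 3.84 ± 0.55 in E11.5 males, each overlapping the next. Tex11 in control E13.5 males, at 3.84 ± 0.05, was level with the last of these. For Syce1, Syce2 and Tex12 the highest mean was in control E13.5 females, at 5.67 ± 0.24, 8.54 ± 0.11 and 4.62 ± 0.75. The Tex12 mean in Rnf2delta E12.5 females was also 4.62, with an SD of 1.10. Neighbours in the Syce1 order overlapped throughout, and so did those in the Syce2 and Tex12 orders. Sycp2 was above the 40th percentile on 13 of 30 arrays, among them all 3 of Rnf2delta E12.5 females, E12.5 males and E11.5 males, and on none of the 12 control arrays at E11.5 and E12.5.

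The profiles of the members resembled each other to differing degrees. Across the 10 group means, Pearson's r between pairs of members ran between 0.34 for Syce2 with Tex11 and 0.99 for Sycp1 with Tex12, with a median of 0.80 over 21 pairs. Across the 30 arrays, after each group mean was removed, r ran between 0.16 for Sycp3 with Syce2 and 0.84 for Sycp3 with Tex12, with a median of 0.51. These points share arrays, amplification and sorting, so r describes them and is not tested. Likeness to other genes was ranked only among tested genes outside the members. The genes whose 10 group means most resembled the mean of the 7 members were Mael (r = 0.99), which acts in the piRNA pathway of germ cells, Glce and Rnf212b (both 0.98), Sec63, Rnf17 and Cntd1 (each 0.97), Myo5a (0.97), and Slc25a31, Cables2 and Adad1 (each 0.96). For single members, the most alike were Rapgef5 for Sycp1 (0.98), Cntd1 for Sycp3 (0.99), Stxbp6 for Sycp2 (0.97), Smo for Syce1 (0.94), Dnase1l1 for Syce2 (0.97), Prps1 for Tex11 (0.96) and Arf2 for Tex12 (0.97).

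Other meiotic genes were described by lists of the roles next to the synaptonemal complex. In E12.5 females the 2 tested partners of the complex, 4930447C04Rik (Six6os1, a central element protein) and Hspa2 (a chaperone of spermatocytes), were both called higher in Rnf2delta. The difference of 4930447C04Rik was 1.43 log2 units (limma adjusted p = 0.00375), with overlapping arrays. Hspa2 was higher by 0.95 ± 0.20 log2 units (SE; limma adjusted p = 0.00315), and it was called in E12.5 males as well, by 0.89 ± 0.20 (SE; adjusted p = 0.0190). Of 8 tested genes of the chromosome axis, 3 were higher and none lower in Rnf2delta E12.5 females. They were the meiotic cohesins Rec8 (1.57 ± 0.26, adjusted p = 2.69e-04) and Smc1b (1.34 ± 0.27, adjusted p = 0.00180), and the HORMA-domain gene Hormad2 (0.90 ± 0.17, adjusted p = 8.87e-04). Of 8 crossover genes 4 were higher, namely Rnf212b (1.38), Ccnb1ip1 (1.33), Cntd1 (1.13) and Shoc1, and none was lower. Shoc1 was below the 40th percentile on all 3 control arrays and on 1 mutant array. With that percentile in place of the control values its measured mutant mean was 1.47-fold higher, which is not a lower limit. Of 11 genes of break formation and strand exchange, 2 were higher (Rec114 by 0.66, and Iho1, below the 40th percentile on all 3 control arrays, by at least 1.78-fold), and 2 of 6 telomere attachment genes were higher, among them Majin by 0.69. Of 8 meiotic entry genes, 3 were higher (Crabp2 by 2.85, Stra8 by 2.79 and Meioc by 2.77) and 1, Zglp1, was lower. Zglp1 differed by -0.69 (limma adjusted p = 0.0486), with overlapping arrays. Majin, Stra8 and Meioc were each above the 40th percentile on 2 of the 3 control arrays. The share called higher among all genes was 7.73%, as above. The medians of the lists were 1.19 for the partners, 0.42 for the axis, 0.82 for crossover, 0.52 for breaks, 0.42 for telomeres and 0.52 for entry, against 0.05 over all genes and 1.43 over the 7 members.

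In E12.5 males the same lists gave fewer calls, where 0.843% of all genes were called higher, against 7.73% in females. They were Hspa2 among the partners and Rnf212b (1.05 ± 0.19, SE; limma adjusted p = 0.00185) among the crossover genes. None of the axis, break, telomere or entry genes was called there. The counts at an unadjusted p under 0.05 in these 4 lists were 3 of 8, 1 of 11, 1 of 6 and 2 of 8. Rnf212b, which encodes a RING-domain crossover protein, was also called in E11.5 males (0.85 ± 0.19, SE; adjusted p = 0.0172), and Crabp2 in E11.5 females (1.22 ± 0.28, SE; adjusted p = 0.0340). Fitting only the 6 arrays compared removed the calls of Hspa2, Rec8, Smc1b, Hormad2, Rnf212b, Cntd1, Shoc1, Iho1, Rec114 and Majin in E12.5 females, with adjusted p of 0.059 to 0.386 there, whereas Stra8, Crabp2 and Meioc were called under every alternative. The call of Ccnb1ip1 was lost with array weights (0.184), as were those of Hspa2, Hormad2, Shoc1, Rec114 and Majin (0.054 to 0.346). Without single arrays of E12.5 females, calls were lost by Shoc1 (control array 1, 0.0542, and mutant array 1, 0.224), by Majin (control array 3, 0.0509) and by Rec114 (control array 1 or 3, 0.1 and 0.154, and mutant array 1 or 2, 0.17 and 0.083). Hspa2 in E12.5 males was lost without control array 1 or 3 (0.143 and 0.0651) or mutant array 1 or 3 (0.109 and 0.0831). Rnf212b in E11.5 males was lost without control array 3 (0.214) or mutant array 1 or 3 (0.0688 and 0.129). Crabp2 in E11.5 females was lost without control array 1 or 3 (0.259 and 0.13) or any mutant array (0.0541, 0.0778 and 0.31).

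**Figure D5:**
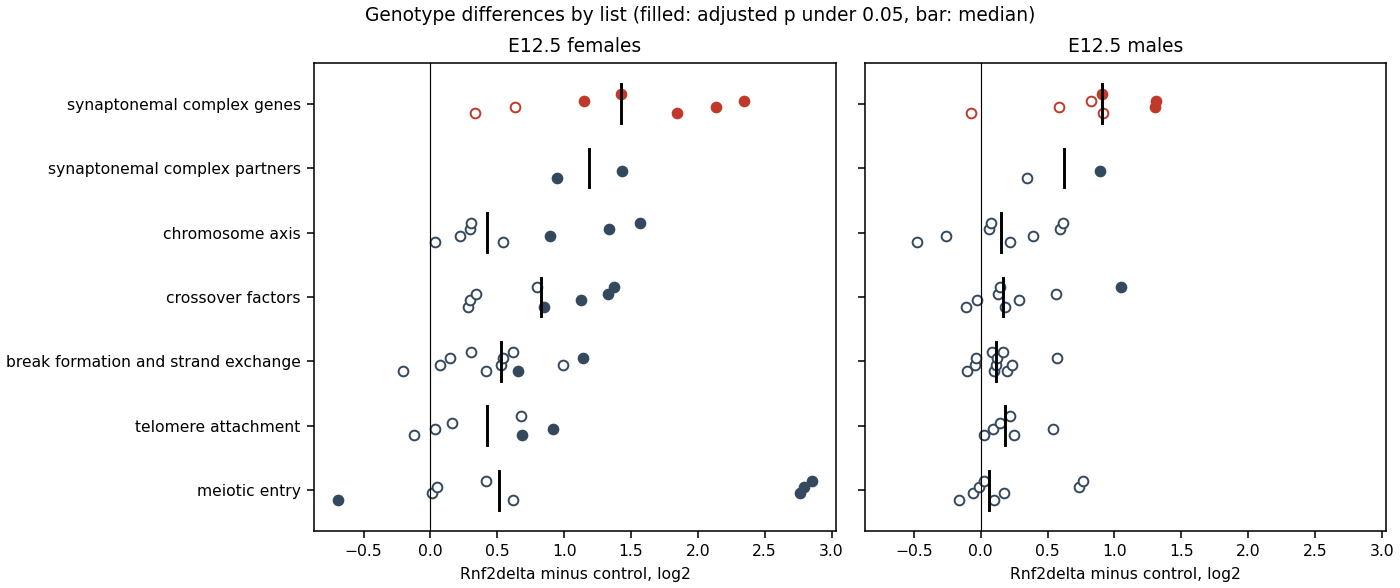
Log2 differences of Rnf2delta minus control germ cells at E12.5 (horizontal axis) for the 7 members and for 6 lists of related meiotic genes, females on the left and males on the right. Each point is a gene, filled where the adjusted p is under 0.05, and the bar is the list's median; the member median is 1.43 in females and 0.91 in males.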

How the data were processed

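RNA of sorted mouse primordial germ cells was measured on 30 Affymetrix arrays in 10 groups of 3. The authors deposited 1 table of log2 signals for 34760 probe sets, made with R 2.15 and affy 1.36, as listed in the submitters' processing notes. How background was corrected, how probes were summarised and which build was used is not stated in the sources used here. Values were used as deposited, and array medians were 2.52 to 2.66. The platform annotation gave 21640 probe sets 1 symbol, 1321 several and 11799 none; 21553 symbols were updated by Entrez ID and 87 kept. Of the 954 genes with more than 1 probe set, each was represented by its brightest probe set on average. Genes above their array's 40th percentile on at least 3 arrays were kept (15180 of 19937). limma 3.58.1 in R 4.3.3 fitted 10 group means, with moderated tests, Benjamini-Hochberg adjustment over all genes kept and a threshold of 0.05. The fit was tested on simulated data. The number of arrays limits the precision.

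Alternatives were array weights, only the compared groups, a mean-variance trend, quantile normalization, the mean of a gene's probe sets, a 60th percentile filter, no filter, a replicate block, each array left out, and, chosen after seeing the data, leaving out the 6 E12.5 female arrays. The tests of whether a change between days differed between the sexes, and the alternatives of related genes, were also added after seeing the data. The text names all 7 members. Of each related list it counts all tested genes and names those called with non-overlapping arrays; 4930447C04Rik, Zglp1 in E12.5 females and the members' own exceptions were named after their values were seen. Genes alike in profile, ranked outside the members, are the 10 with the highest correlation to the mean of the members and the first for each member. Members and lists were chosen with earlier results of these data known. Promoter windows and gene coordinates are from RefSeq, GRCm38.p6.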

Additional observations from a re-analysis of the deposited data

Results flagged for a closer look

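In control germ cells the change of Sycp3, an axial element gene, between E12.5 and E13.5 differed between the sexes, which is why it is listed here. It was larger in females than in males by 1.61 ± 0.46 log2 units (SE; limma adjusted p = 0.0338, with 5.07% of all genes called in that direction). The adjusted p ran between 0.0165 and 0.115 over the alternatives, and the call was lost without control E12.5 female array 1 (0.0563), control E13.5 female array 2 or 3 (0.115 and 0.0639), control E12.5 male array 1 (0.108), or control E13.5 male array 2 or 3 (0.0824 and 0.0619).

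In Rnf2delta germ cells the change between E11.5 and E12.5 was larger in females than in males for 3 members, against 1.21% of all genes. The excess was 1.71 ± 0.40 for Sycp1 (SE; limma adjusted p = 0.0177), 1.84 ± 0.46 for Sycp3 (SE; adjusted p = 0.0289) and, as fitted, 1.31 ± 0.34 for Sycp2 (SE; adjusted p = 0.0313). The Sycp2 value rests on Rnf2delta E11.5 female signals below the 40th percentile of their arrays. With that percentile in their place the female change of Sycp2 was at least 1.91-fold. When only the 4 groups compared were fitted none of the 3 was called (adjusted p = 0.0637 for Sycp1, 0.127 for Sycp2 and 0.0841 for Sycp3). Leaving out Rnf2delta E12.5 female array 1 or Rnf2delta E11.5 male array 3 also ended each call, at 0.0636 and 0.0539 for Sycp1, 0.079 and 0.0959 for Sycp2, and 0.0938 and 0.0947 for Sycp3. Sycp2 and Sycp3 lost their calls without several other single arrays as well, with adjusted p of 0.0507 to 0.0728 for Sycp2 and 0.0559 to 0.0685 for Sycp3. Both tests were added after the data had been seen.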

How the results depend on the processing

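Over 154 combinations of a member and a comparison, 2381 of 2547 alternative values kept their direction and their side of the threshold, 63 lost a call, 38 gained one and 65 changed sign, all in differences that were called in neither setting. With array weights the number of members called was 1 in place of 0 for the genotype in E11.5 females, 4 in place of 2 in E11.5 males, 1 in place of 0 for control males at E13.5 against E12.5, and 2 in place of 0 for Rnf2delta males at E12.5 against E11.5. With only the compared groups it was 2 in place of 0 for the genotype in E11.5 females, 3 in place of 5 in E12.5 females, 2 in place of 1 for control females at E12.5 against E11.5, 1 in place of 0 for control males at E12.5 against E11.5, 1 in place of 2 between the sexes at Rnf2delta E12.5, and 0 in place of 3 for the Rnf2delta change between days compared between the sexes. Without the 6 E12.5 female arrays it was 1 in place of 0 for the genotype in E11.5 females, 4 in place of 2 in E11.5 males, and 1 in place of 0 for control males at E13.5 against E12.5, for Rnf2delta males at E12.5 against E11.5 and between the sexes at Rnf2delta E11.5. The control change between days compared between the sexes had 2 in place of 1 with the 60th percentile filter and with the trend. Smaller moves were 4 for 5 with array weights for the genotype in E12.5 females and 5 for 4 between the sexes at control E13.5. With only the compared groups they were 2 for 3 for the genotype in E12.5 males, 4 for 5 for control females at E13.5 against E12.5, 5 for 6 for Rnf2delta females and 5 for 4 between the sexes at control E13.5. They were also 5 for 4 at control E13.5 with quantile normalization and without the 6 E12.5 female arrays. With the 60th percentile filter, which drops Sycp2, they were 4 for 5 for the genotype in E12.5 females, 5 for 6 on average, 5 for 6 for Rnf2delta females and 2 for 3 for the Rnf2delta change compared between the sexes. The cause was not tested.

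With 1 array left out, the genotype gave 0 members in E11.5 females, 0 to 2 in E11.5 males, 4 to 6 in E12.5 females, 1 to 3 in E12.5 males and 6 on average. Control females gave 0 to 1 at E12.5 against E11.5 and 4 to 6 at E13.5 against E12.5, and control males 0 at both steps. Rnf2delta females gave 5 to 6 and Rnf2delta males 0 to 1. The sexes gave 2 to 4 at control E13.5, 1 to 4 at Rnf2delta E12.5 and 0 at control E11.5, control E12.5 and Rnf2delta E11.5. Rnf2delta E12.5 against control E13.5 females gave 1 to 3. The genotype effect compared between sexes or, in females, between days gave 0 to 1, and in males 0; the change between days compared between sexes gave 0 to 2 members in control cells and 0 to 4 members in Rnf2delta cells.

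Sign changes beyond single arrays were, for Syce2, a genotype difference of 0.011 in E11.5 females (array weights) and a mean of -0.083 (without the 6 E12.5 female arrays) and -0.016 (quantile normalization). Between the sexes at control E12.5 they were -0.099 for Sycp2 (quantile normalization), and 0.0052 (array weights) and 0.083 (quantile normalization) for Syce2. Tex12 gave 0.023 for Rnf2delta E12.5 against control E13.5 females (quantile normalization), and Tex11 -0.052 for the control change compared between the sexes (array weights). With 1 array left out, uncalled genotype differences of Syce2 ran between -0.19 and 0.065 in E11.5 females, -0.15 and 0.037 in E12.5 males and -0.020 and 0.049 on average. Between days they ran, in control males at E12.5 against E11.5, between -0.31 and 0.072 for Syce1 and -0.081 and 0.12 for Syce2, and at E13.5 against E12.5 between -0.12 and 0.38 for Sycp3 and -0.18 and 0.0014 for Syce2. Syce1 in Rnf2delta females ran between -0.32 and 0.065, and in Rnf2delta males Sycp2 between -0.23 and 0.085 and Sycp3 between -0.072 and 0.46. Between the sexes at control E11.5 they ran between -0.34 and 0.063 for Sycp1 and -0.23 and 0.19 for Tex12. At control E12.5 they ran between -0.076 and 0.11 for Sycp2, -0.13 and 0.38 for Sycp3, -0.12 and 0.24 for Syce1 and -0.13 and 0.14 for Syce2. At Rnf2delta E11.5 they ran between -0.51 and 0.020 for Sycp3, -0.052 and 0.34 for Syce1 and -0.21 and 0.037 for Syce2. Tex12 ran between -0.64 and 0.38 for Rnf2delta E12.5 against control E13.5 females, and between -0.028 and 0.95 for the E12.5 genotype effect compared between the sexes. In males the change of the genotype effect between days ran between -0.28 and 0.030 for Sycp2, -0.022 and 0.18 for Syce2, -0.074 and 0.44 for Tex11 and -0.22 and 0.27 for Tex12. The control change compared between the sexes ran between -0.093 and 0.14 for Tex11.

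Replicate numbers in the labels were not used to pair the samples. Deviations of same-numbered arrays correlated at -0.16 to 0.30 (median 0.004, 135 pairs). Those of differently numbered arrays correlated at -0.24 to 0.21 (median -0.003, 270 pairs), and 14 of 30 arrays correlated best with their own number. With the replicate block 0 of 154 calls changed. Over all genes the calls for the genotype in E12.5 females were 1502, 254 with array weights and 54 with only the compared groups.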

Other observations

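Tex11 was not the only meiotic gene with more signal in Rnf2delta E12.5 females than in control E13.5 females. Hspa2, a chaperone of spermatocytes, was higher by 1.04 ± 0.20 log2 units (SE; limma adjusted p = 0.00139), and Hormad1, a HORMA-domain protein of unsynapsed axes, by 0.87 ± 0.20 (SE; adjusted p = 0.00593). Both were called under every alternative tried. The central element gene 4930447C04Rik (Six6os1) was also called higher, although its arrays overlapped. Iho1, a partner of HORMAD1 in break formation and above the 40th percentile on 1 of the 3 control arrays, was higher by 0.91 ± 0.25 (SE; adjusted p = 0.0201, in a range of 9.39e-04 to 0.223 over the alternatives), and its call was lost without mutant array 1 (0.158) or control array 1 or 2 (0.0572 and 0.0702). Other genes of the same lists were lower in the mutant females at E12.5 than in the control females at E13.5. Hsf2bp, which binds BRCA2 in meiotic recombination, differed by -1.09 ± 0.19 (SE; adjusted p = 5.88e-04), and Zglp1, a factor of the oogenic programme, by -1.32 ± 0.23 (SE; adjusted p = 4.33e-04), both called under every alternative. Mei4, a break formation gene below the 40th percentile on all 3 mutant arrays, was at least 1.25-fold lower (adjusted p of the measured values = 0.0141, and 0.0666 without control array 3). In this comparison 3.64% of all genes were called higher and 5.81% lower, and stage and genotype cannot be told apart in it.

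In control females at E13.5 the axis gene Rec8 was higher than in control males by 2.70 ± 0.26 (SE; limma adjusted p = 2.10e-08) (called under every alternative). Stra8 was above the 40th percentile on all 3 female arrays and on 1 of the 3 male arrays there, and was called higher in females (adjusted p = 7.65e-09).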
